A study of Mus musculus with 16 samples.

Results

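The 9 genes described here are regulators and markers of muscle stem cells and of the myoblasts that arise from them: Pax7, Myf5, Myod1, Myog, Myf6, Mymk, Mymx, Cdh15 and Mef2c. They were chosen by symbol, and all 9 were found among the 35415 genes of the deposited count and FPKM tables. The tables hold polyA RNA of the gastrocnemius muscle of 16 wild type male BALB/c mice, young adults, sequenced as 1 library per mouse with 4 mice in each of 4 groups. The C (control) group received saline and was placed on a treadmill that did not move, and the E (exercise) group received saline and ran. Mice of the T (tumor-bearing) group bore CT26 tumors without running, and mice of the TE group bore the same tumors and ran. CT26 is a colon carcinoma line of BALB/c origin, injected under the skin near the left hind limb. The side of the sampled muscle is not given in the sources used here. All libraries carry the same batch number in the labels, and mice are named below by group and replicate number, T4 for replicate 4 of the T group. Each library held 35628211 to 37635741 counts. On the CPM scale (counts scaled to the library total), a floor of detection of 3 counts stands at 0.0797 to 0.0842. This floor covers counting error only, because copies made by PCR cannot be told from separate molecules.

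Skeletal muscle fibres are syncytia that cannot divide, and new nuclei come from satellite cells, stem cells that lie between the fibre and its basement membrane. Pax7 marks the satellite cell, Myf5 and Myod1 mark its commitment to the muscle lineage, Myog starts differentiation, and the membrane proteins encoded by Mymk and Mymx fuse the resulting cells into fibres. Myf6 is the member of the same transcription factor family that adult fibres themselves express, Cdh15 encodes M-cadherin, an adhesion protein of satellite cells and myoblasts, and Mef2c is a transcription factor that works together with the Myod1 family. The genes thus form a sequence from stem cell to fibre, and whole muscle contains RNA of all its steps. In whole muscle, fewer cells of a type and less RNA per cell cannot be told apart.

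The label of the tissue was compared with its markers first. The summed FPKM of 8 myofibre markers was 54530 to 63860 in every library, while genes of other cell types differed between libraries. The 9 lymph node and B cell markers summed to 123.5 FPKM in TE4 and to 4.633 to 41.05 in all others. The 6 macrophage and neutrophil markers summed to 6.417 to 17.18 FPKM in C and E mice and to 20.32 to 87.43 in T and TE mice, with the highest value in T4. The 5 tendon markers summed to 50.67 to 79.45 FPKM in E mice and to 22.67 to 40.13 in all others. The part of these cells in the results below was not tested.

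Per transcript length, Myf6 was the highest of the 4 genes of the Myod1 family. Its mean level over the 16 mice was 87.8 FPKM, which was 4.16 times that of Myod1 (21.1 FPKM). Myod1 was in turn 4.38 times as high as Myog (4.81 FPKM), and Myog was 4.65 times as high as Myf5 (1.03 FPKM). These steps were far larger than the spread between mice, since the ranges of neighbouring genes in this order did not overlap in any group.

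**Figure D1:**
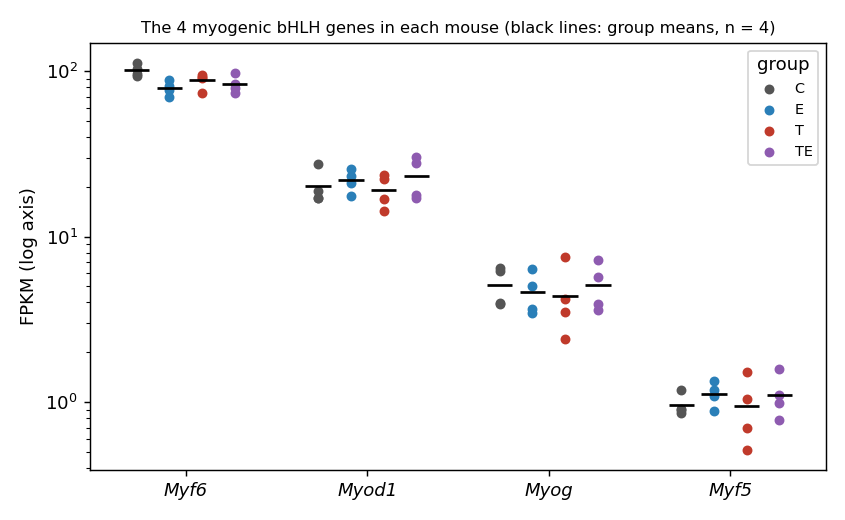
FPKM on a log axis (y) of the 4 genes of the Myod1 family (x) in each mouse, coloured by group, with black lines at the group means of 4 mice. Myf6 lies between 70.1 and 112 FPKM, Myod1 between 14.2 and 30.0, Myog between 2.41 and 7.50 and Myf5 between 0.512 and 1.58, so the order of the genes is the same in every mouse.

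Of the summed FPKM of these 4 genes, Myf6 made up 79.5% ± 3.25 (SD, n = 4) in C mice, 74.0% ± 3.97 in E mice, 78.1% ± 3.41 in T mice and 74.2% ± 3.23 in TE mice. Myod1 held 15.8% ± 3.07 in C mice, 20.6% ± 4.06 in E mice, 17.0% ± 2.98 in T mice and 20.3% ± 3.77 in TE mice. The mean sums were 127.3 FPKM in C mice, 107.0 in E mice, 112.3 in T mice and 112.6 in TE mice. The groups overlapped in both shares.

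Among the remaining members, Cdh15 had a mean of 6.16 FPKM and Pax7 a mean of 0.641 FPKM, a ratio of 9.62. The deposited length of Cdh15 is shorter than its longest GENCODE transcript (2843 against 5163 bases), and per longest transcript its level would be 3.39, below instead of above that of Myog. Mymk and Mymx had means of 0.270 and 0.192 FPKM, most of which comes from T4. Mef2c, at 7.63 FPKM, cannot be placed in this order. The deposited FPKM divide its counts by a length of 56354 bases, which is 7.86 times its longest GENCODE transcript (7167 bases), and per longest transcript its level would be 60.0. Comparisons of Mef2c between mice are not touched by this, because the same length is used for every mouse.

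The spread between mice of 1 group differed among the genes. The biological coefficient of variation from edgeR was 9.79% for Mef2c, 10.1% for Cdh15 and 10.5% for Myf6, below the median of 13.3% over all tested genes. It was 19.6% for Pax7, 21.8% for Myod1, 28.6% for Myf5 and 29.8% for Myog. The 4 genes with the larger spread had 52 to 2073 counts per library, while Cdh15, with a smaller spread, had 543 to 870.

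**Figure D2:**
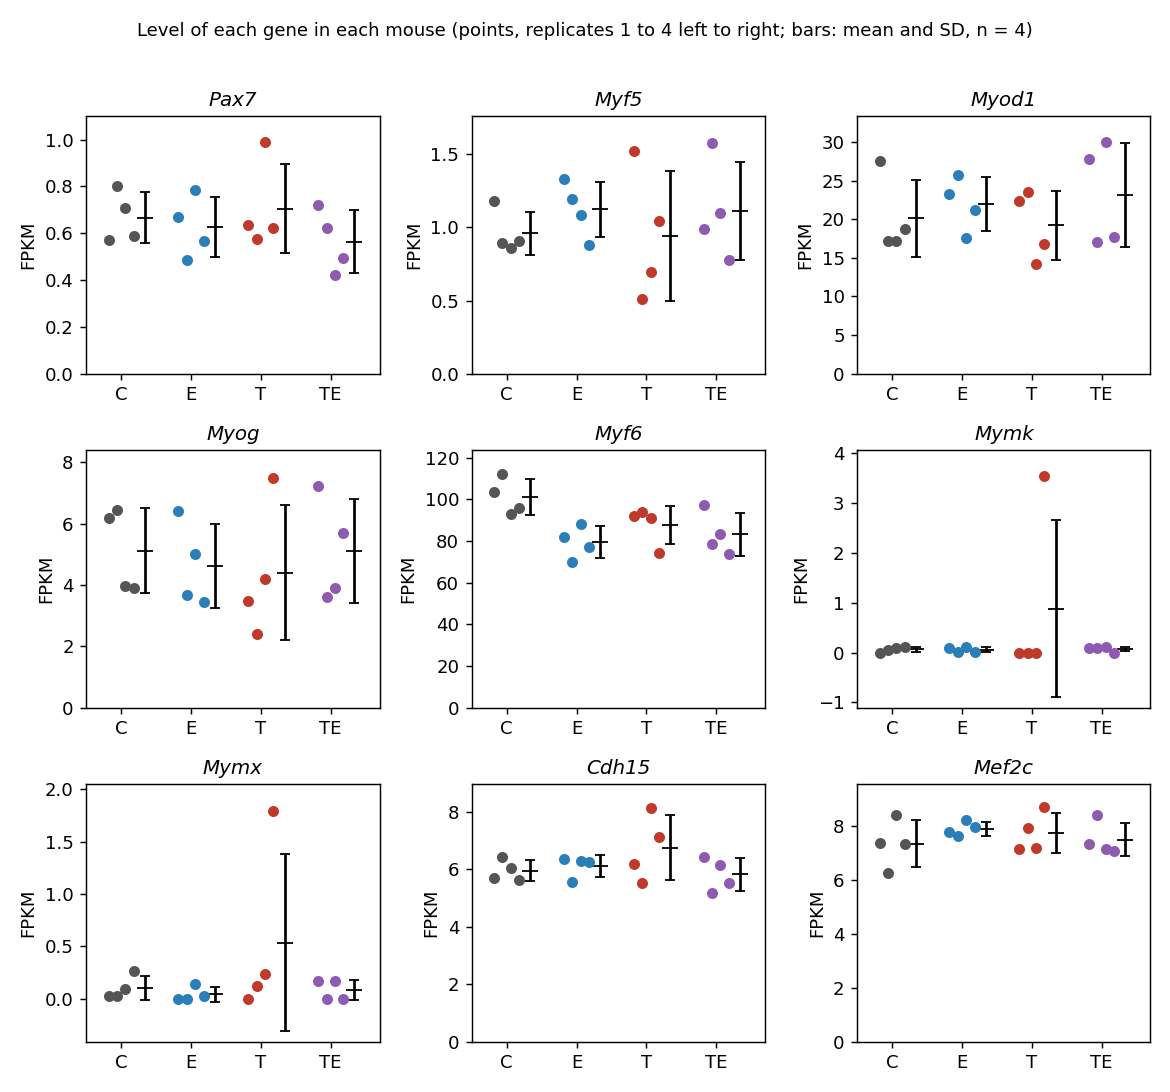
FPKM (y) of each of the 9 genes in each mouse by group (x), with points for replicates 1 to 4 from left to right and bars for the mean and SD of 4 mice. The E mice lie below the C mice for Myf6, and T4 lies far above all other mice for Mymk and Mymx, while the groups overlap for the other genes.

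The comparisons of the design ask what the tumor does to the muscle (T against C), what training does without a tumor (E against C) and with one (TE against T), and whether the effect of training depends on the tumor (the interaction). A main effect is the mean difference for tumor or for training over both levels of the other factor. Counts were tested with edgeR's quasi-likelihood test, and a gene was called when its adjusted p-value, by the Benjamini-Hochberg method over the 14749 tested genes, was under 0.05. Of the 9 members, 7 entered the test, and Mymk and Mymx were removed by the filter on low counts.

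None of the 7 tested members was called in any of the 6 contrasts by edgeR fitted on all 4 groups. DESeq2, and edgeR fitted on only the groups compared, each called 1, Myf6 in E against C, beside 1.85% and 1.29% of all genes in the same fits. In T against C, 0 members were called beside 0.678% of all tested genes, and 0 had an unadjusted p-value under 0.05 beside 14.2%. In E against C, 0 members were called beside 0.0881% of all genes, and 1 (Myf6, lower) had an unadjusted p-value under 0.05 beside 14.2%. In TE against T, 0 members and 0.0% of all genes were called, and 1 member (Cdh15, lower) passed without adjustment beside 5.88%. For the tumor main effect, 0 members were called beside 1.36% of all genes, and 0 passed without adjustment beside 14.2%. For the training main effect, 0 members were called beside 0.00678%, and 1 (Myf6, lower) passed without adjustment beside 10.8%. For the interaction, 0 members and 0.0% of all genes were called, and 1 member (Myf6) passed without adjustment beside 9.21%. With 7 genes, counts of 0 or 1 are close to what the shares over all genes would give.

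The median log2 fold change of the 7 members was 0.0073 in T against C beside -0.0012 over all tested genes, with 4 members higher and 3 lower. It was -4.6e-05 beside 0.0033 in E against C (3 higher, 4 lower) and -0.060 beside 0.0014 in TE against T (3 higher, 4 lower). Group means of Myod1, Pax7, Myf5, Myog, Cdh15 and Mef2c followed different orders, and for each of these genes all neighbours in its order overlapped.

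**Figure D3:**
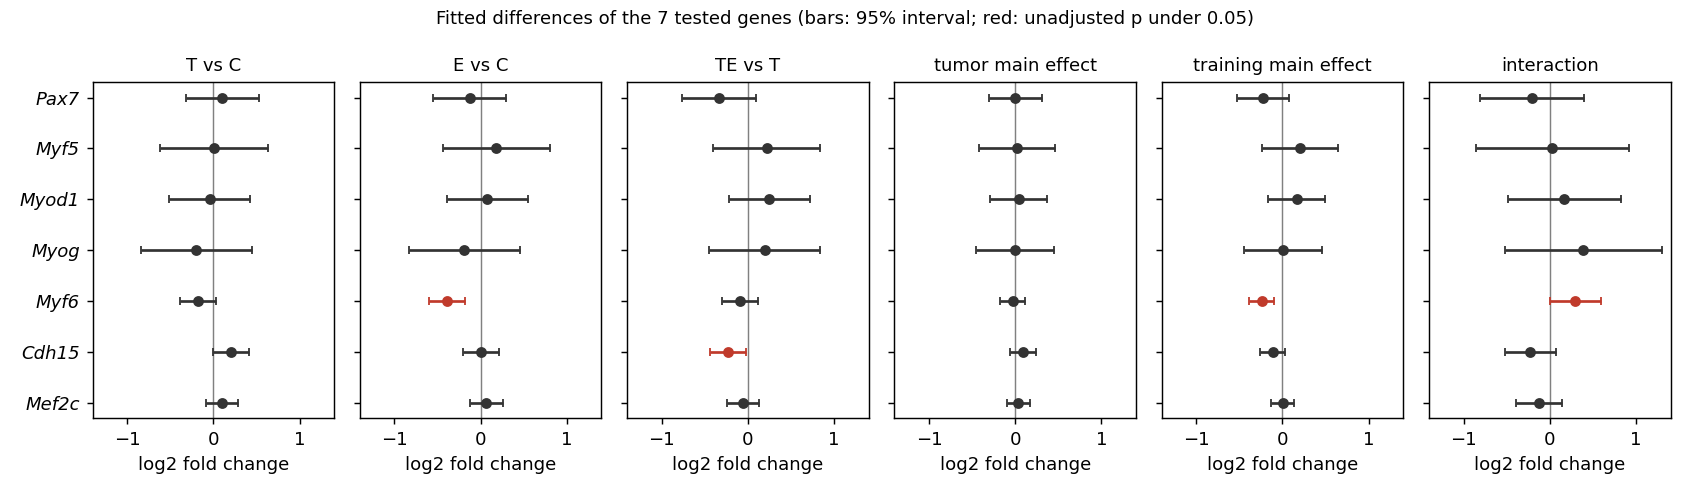
Log2 fold change (x) with its 95% interval from edgeR of the 7 tested genes (y) in the 6 contrasts (panels), with an unadjusted p under 0.05 in red. Only Myf6 (E vs C, training main effect, interaction) and Cdh15 (TE vs T) are red, and the intervals are narrowest for Mef2c, Myf6 and Cdh15.

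Myf6, also called Mrf4, lies on chromosome 10 of GRCm39 (chr10:107328712-107330656, minus strand), 6716 bases from its relative Myf5. In C mice it was at 103.3, 112.2, 92.9 and 95.8 FPKM, and in E mice at 81.6, 70.1, 88.4 and 77.2 FPKM. In T mice it was at 91.8, 94.0, 91.1 and 74.1 FPKM, and in TE mice at 97.3, 78.5, 83.4 and 73.6 FPKM. Every E mouse was thus below every C mouse, T and TE mice overlapped with both, and T4 was the lowest T mouse. The order of the group means was C, T, TE and E, and only C and E, its ends, did not overlap.

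The E mice had 86.65 to 105.6 CPM of Myf6 and the C mice 114.3 to 138.6 CPM, and 9.08% of all tested genes had groups that did not overlap in this comparison. The log2 fold change in E against C was -0.39 (SE 0.0986, 95% interval -0.60 to -0.18, edgeR adjusted p = 0.133). The gene was therefore not called in the fit of all 4 groups. It was called by DESeq2 (adjusted p = 0.0188) and by edgeR on only the C and E groups (adjusted p = 0.0464), and its adjusted p was 0.0718 to 0.316 when single libraries were left out.

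In tumor-bearing mice the log2 difference of Myf6 with training was -0.09 (TE against T, 95% interval -0.30 to 0.12, edgeR adjusted p = 0.953). The difference between both effects of training, which the interaction tests, was 0.30 (95% interval 0.0032 to 0.59, edgeR adjusted p = 0.540) and was not called. Over both tumor states training gave -0.24 (edgeR adjusted p = 0.280), and the tumor alone gave -0.18 (95% interval -0.38 to 0.031, edgeR adjusted p = 0.441). With 1 library left out, TE against T ran from -0.17 (without TE1) to -0.020 (without TE4), T against C from -0.23 (without C3) to -0.10 (without T4) and the interaction from 0.22 (without TE1) to 0.37 (without TE4). In E against C, 2 of 5 tendon markers were called higher in E, Fmod by 1.99 and Tnmd by 1.56 on the log2 scale (edgeR adjusted p = 0.0206 and 0.0274). These calls held in 18 and 19 of 26 alternatives, with adjusted p up to 0.0980 and 0.0949, and both were lost without C1, C2, C3, C4, E2 or E4. The fibro-adipogenic and endothelial markers summed to 460.9 to 564.3 and 140.8 to 154.9 FPKM in E mice against 317.4 to 434.4 and 104.9 to 137.0 in C mice. The part of these cells in the Myf6 difference was not tested.

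Pax7, the transcription factor that defines the satellite cell (chr4:139464373-139560839, minus strand), was found in every library with 92 to 218 counts. It was at 0.569, 0.802, 0.708 and 0.588 FPKM in C mice and at 0.669, 0.486, 0.784 and 0.568 FPKM in E mice. It was at 0.633, 0.575, 0.990 and 0.622 FPKM in T mice and at 0.722, 0.621, 0.422 and 0.492 FPKM in TE mice. T3 was the highest mouse and TE3 the lowest, and the 4 groups overlapped.

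The fitted differences of Pax7 were 0.10 in T against C (95% interval -0.32 to 0.53), -0.13 in E against C (-0.55 to 0.30) and -0.33 in TE against T (-0.76 to 0.094) on the log2 scale, with edgeR adjusted p-values of 0.859, 0.8294 and 0.884. When single libraries were left out, T against C ran from -0.087 (without T3) to 0.20 (without C2), E against C from -0.24 (without E3) to -0.027 (without E2) and TE against T from -0.47 (without TE1) to -0.14 (without T3).

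Cdh15 (chr8:123574705-123596048, plus strand) was also highest in T3. Its levels were 5.72, 6.42, 6.05 and 5.64 FPKM in C mice and 6.37, 5.55, 6.28 and 6.25 FPKM in E mice. In T mice they were 6.20, 5.54, 8.15 and 7.13 FPKM, and in TE mice 6.44, 5.19, 6.14 and 5.53 FPKM. T3 and T4 exceeded all other mice, on FPKM and on CPM.

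The log2 fold change of Cdh15 was 0.21 in T against C (95% interval -0.0025 to 0.41, edgeR adjusted p = 0.360). It was -0.23 in TE against T (95% interval -0.43 to -0.017, edgeR adjusted p = 0.843). Without T3 these values were 0.12 and -0.14, and without T2 they were 0.29 and -0.30. In E against C its difference was near 0 (95% interval -0.21 to 0.21). T3 also had the highest summed level of endothelial markers (165.3 FPKM) and of the satellite cell receptor and niche genes (179.9 FPKM), and was the highest library for 10.2% of all tested genes, and the part of this in the Cdh15 values was not tested.

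Myod1, which commits cells to the muscle lineage (chr7:46025870-46028526, plus strand), varied between mice more than between groups. Its levels were 27.5, 17.1, 17.1 and 18.8 FPKM in C mice and 23.3, 25.7, 17.5 and 21.1 FPKM in E mice. They were 22.4, 23.5, 14.2 and 16.7 FPKM in T mice and 27.8, 17.0, 30.0 and 17.7 FPKM in TE mice. C1 stood above the other C mice, T3 was the lowest mouse and TE3 the highest. Its log2 differences were -0.04 in T against C (95% interval -0.51 to 0.42), 0.08 in E against C (-0.39 to 0.55) and 0.25 in TE against T (-0.22 to 0.72), with edgeR adjusted p-values of 0.960, 0.909 and 0.934. With 1 library left out, T against C ran from -0.15 (without T2) to 0.17 (without C1), E against C from -0.013 (without E2) to 0.29 (without C1) and TE against T from 0.086 (without TE3) to 0.38 (without TE4).

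Myf5 (chr10:107318769-107321995, minus strand), the earliest of the family in the embryo, had 52 to 160 counts per library. It was at 1.18, 0.896, 0.857 and 0.909 FPKM in C mice and at 1.33, 1.19, 1.09 and 0.880 FPKM in E mice. It was at 1.52, 0.512, 0.694 and 1.04 FPKM in T mice and at 0.989, 1.58, 1.10 and 0.780 FPKM in TE mice. T2 was the lowest mouse and TE2 the highest, and the T group spread wider than the C and E groups on both sides. The log2 differences were 0.0073 in T against C (95% interval -0.62 to 0.63), 0.18 in E against C (-0.44 to 0.81) and 0.22 in TE against T (-0.41 to 0.84), none of them called by edgeR. When single libraries were left out, T against C ran from -0.35 (without T1) to 0.21 (without T2), E against C from 0.092 (without E1) to 0.32 (without C1) and TE against T from -0.0046 (without TE2) to 0.57 (without T1).

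Myog, the gene that starts terminal differentiation, lies at chr1:134217707-134220287 on the plus strand, where the long noncoding gene Gm32221 overlaps it on the other strand with 0 to 11 counts per library. The strand setting of the counting is not given in the sources used here. Myog was at 6.18, 6.43, 3.98 and 3.89 FPKM in C mice and at 6.40, 3.66, 5.01 and 3.43 FPKM in E mice. It was at 3.49, 2.41, 4.19 and 7.50 FPKM in T mice and at 7.23, 3.60, 3.90 and 5.69 FPKM in TE mice. The T group thus held both the lowest (T2) and the highest (T4) mouse. The log2 differences were -0.20 in T against C (95% interval -0.84 to 0.45), -0.19 in E against C (-0.83 to 0.45) and 0.20 in TE against T (-0.45 to 0.84), and the interaction was 0.39 (-0.52 to 1.30), none of them called by edgeR. With 1 library left out, the T against C value ran from -0.59 (without T4) to 0.0016 (without T2), E against C from -0.39 (without E1) to -0.065 (without C1), TE against T from -0.011 (without TE1) to 0.59 (without T4) and the interaction from 0.18 (without TE1) to 0.78 (without T4).

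Mef2c (chr13:83652064-83815555, plus strand) was the steadiest member, with 12994 to 18064 counts per library. Its levels were 431.9, 348.1, 464.9 and 413.2 CPM in C mice and 425.8, 424.1, 442.5 and 444.7 CPM in E mice. They were 425.1, 454.0, 400.8 and 499.1 CPM in T mice and 412.1, 485.8, 416.2 and 391.9 CPM in TE mice. The 4 groups overlapped, and the group means were 414.5 CPM in C, 434.3 CPM in E, 444.8 CPM in T and 426.5 CPM in TE. T4 was the highest mouse and C2 the lowest. The log2 differences were 0.10 in T against C (95% interval -0.085 to 0.29), 0.07 in E against C (-0.12 to 0.25) and -0.06 in TE against T (-0.25 to 0.13), none of them called by edgeR. When single libraries were left out, T against C ran from 0.025 (without C2) to 0.16 (without C3), E against C from -0.0090 (without C2) to 0.12 (without C3) and TE against T from -0.12 (without TE2) to 0.0047 (without T4). TE4, the library with the highest lymph node and B cell markers, had the lowest Mef2c of the TE mice (391.9 CPM).

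The fusion genes gave the clearest difference between single mice. Mymk encodes myomaker (chr2:26951627-26962228, minus strand) and had 0, 3, 5 and 6 counts in C mice, 5, 1, 6 and 1 in E mice, 0, 0, 0 and 194 in T mice, and 5, 5, 6 and 0 in TE mice. Mymx encodes myomixer (chr17:45911239-45913028, minus strand) and had 1, 1, 4 and 11 counts in C mice, 0, 0, 6 and 1 in E mice, 0, 5, 10 and 74 in T mice, and 7, 0, 7 and 0 in TE mice. Both genes were at or near the floor of 3 counts in most mice and far above it in T4.

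T4 alone held 81.9% of all Mymk counts and 58.3% of all Mymx counts. Per library total, T4 was 31.9 times as high as the next mouse (C4) for Mymk, with a 95% counting interval of 14.4 to 88.0, and 6.64 times as high (3.50 to 13.9) for Mymx. Adamtsl2 overlaps Mymk on the other strand and had 67 counts in T4 against 48 to 158 in the other libraries, so T4 lay within the range of the others for that gene. Mymx is overlapped by the noncoding gene Gm56882 on the other strand.

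Between groups, the exact two-sided permutation test on CPM gave p = 1.0 (T against C), 0.8286 (E against C) and 1.0 (TE against T) for Mymk, and 0.457, 0.457 and 0.371 for Mymx. The smallest p that 4 against 4 mice can give is 0.0286, and the values adjusted over these 6 tests were 0.914 to 1.0. For Mymk, T4 beside mice at 0 counts has the smallest difference that any split could give. The p-values of both comparisons with T were thus fixed and do not show that the groups are alike. Without the filter on low counts, edgeR gave Mymk a log2 fold change of 3.75 in T against C (adjusted p = 0.252), a value that rests on T4, since the other T mice had 0 counts.

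T4 was also the highest library for 7 of 10 listed genes of embryonic and regenerating fibres. Myh3, the embryonic myosin heavy chain, had 2588 counts in T4 against 289 in T3, the next library, and 49 to 124 in all C, E and TE mice. Myl4, an embryonic myosin light chain, had 895 counts in T4 against 196 in the next mouse, Tnnt2, the cardiac and embryonic troponin T, had 435 against 143, and Chrng, the fetal subunit of the acetylcholine receptor, had 59 against 9. Myh8, the perinatal myosin, had 1941 against 1208, and H19, an imprinted RNA chosen after its values were seen, had 40138 against 18912.

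**Figure D4:**
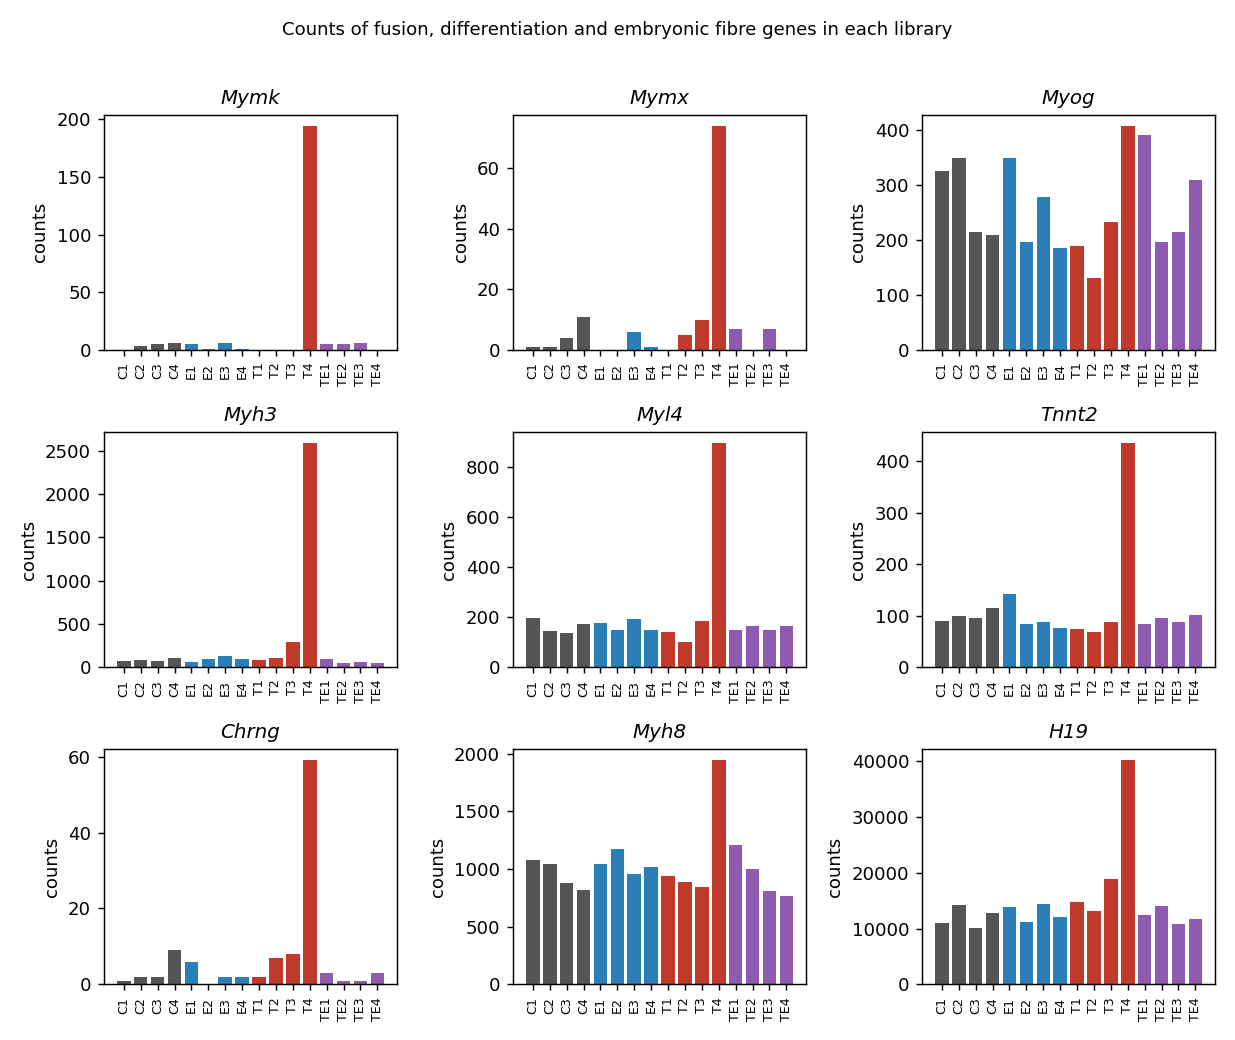
Counts (y, from 0) in each library (x, group and replicate) of Mymk, Mymx, Myog and 6 genes of embryonic, perinatal or denervated fibres, coloured by group. T4 has the highest bar in all 9 panels, by 31.9 times per library total for Mymk and by 1.04 times for Myog.

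The seventh of the listed genes that were highest in T4 was Igf2, which encodes a growth factor (2026 counts in T4 against at most 1872). T4 was not the highest library for Actc1, the cardiac actin (4092 counts in T4, with 12 libraries above it), Dlk1 (39 counts, 12 above) and Mybph (12173 counts, 3 above), all 4 named after their values were seen. Of the 9 members T4 was highest for 4 (Myog, Mymk, Mymx and Mef2c), of which only Myog and Mef2c were among the tested genes. It was the highest library for 6.97% of all tested genes. Myog in T4 (408 counts) was close to TE1 (392 counts), with a ratio of 1.04 and a 95% counting interval of 0.901 to 1.19, so Myog did not set T4 apart as Mymk did. Pax7, Myf5, Myod1 and Myf6 were not highest there, and Myf6 was lowest among the T mice. T4 also had the highest sums of 7 slow fibre markers (1437 FPKM) and of macrophage and neutrophil markers (87.43 FPKM), and the part of these in the fusion gene counts was not tested.

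The promoters of a differentiation gene and an embryonic fibre gene that were both highest in T4 are shown, chosen after their values were seen, since proteins of the Myod1 family bind the E box (CANNTG, the same on both strands). The sequences are from RefSeq's GRCm38.p6 table and each matched GRCm39 once, and capitals mark E boxes. For Myog, 35 bases of the window lie inside the GENCODE gene and are left out, together with the E box nearest to the start.
Myog (chr1:134217492-134217706, plus strand): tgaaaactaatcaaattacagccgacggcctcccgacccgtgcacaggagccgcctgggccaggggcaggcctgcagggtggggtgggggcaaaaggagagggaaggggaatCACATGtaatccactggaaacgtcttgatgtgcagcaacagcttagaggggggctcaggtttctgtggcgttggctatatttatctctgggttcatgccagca
Myh3 (chr11:66968876-66969125, plus strand): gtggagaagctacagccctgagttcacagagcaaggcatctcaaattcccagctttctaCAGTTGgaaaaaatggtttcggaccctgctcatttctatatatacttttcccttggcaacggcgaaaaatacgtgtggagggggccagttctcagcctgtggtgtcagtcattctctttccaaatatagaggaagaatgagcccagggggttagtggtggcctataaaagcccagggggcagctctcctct

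In the 250 bases before the RefSeq start, Myog had E boxes 138 and 12 bases before it, and Myh3 had 1 at 191 bases. Cdh15 had 3, Pax7 and Myf5 had 0, and the 3 Mef2c starts had 2, 0 and 1. An E box is found in 66.2% of 32851 such promoters, so its presence is common. The table held 5 of the 9 members, and Myod1, Myf6, Mymk and Mymx were not among them.

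Across the 16 mice, the 9 members formed 36 pairs. On log2(CPM + 0.5), 0 of 36 Pearson correlations passed a permutation test adjusted over the pairs. Mymk and Mymx had r = 0.924 (permutation p = 0.00572, adjusted p = 0.206) and rho = 0.479 (p = 0.0635, adjusted p = 0.608). Without T4 r was 0.358, and without T4 and C1, which is 1 of 5 mice with 0 Mymk counts and was left out with T4 as farthest from the median, it was 0.326. The relation thus rests on T4.

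After each value was centred on its group mean, this pair had r = 0.928 and rho = 0.852. T4 sets the T group mean of both genes, so that centring moves T1, T2 and T3 down together in both, and no p-value is given for the centred values. Without T4, chosen after the data were seen, they had r = 0.582 and rho = 0.58 over 15 mice. Pax7 had r = 0.594 and rho = 0.468 with Cdh15, and r = -0.579 and rho = -0.591 with Myod1, with permutation adjusted p-values of 0.216 for both r, and 0.608 for both rho. Without T3 and TE3 these r were 0.505 and -0.245.

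The 3 genes most like each member, by Pearson r of log2(CPM + 0.5) over 16 libraries among 14749 genes, are given as a description. These libraries share tissue, depth and batch. For Mymk they were Tnnt2 (r = 0.944), Myl4 (0.936) and Cthrc1 (0.928), and for Mymx Cthrc1 (0.960), Myh3 (0.935) and Sln (0.882), all of them highest in T4. For Myog they were Txndc17 (0.840), Cmtm3 (0.814) and Ctxn1 (0.794). For Myod1 they were Mmp16 (0.891), Malat1 (0.820) and Cacna2d4 (0.791), and for Myf5 Tecr (0.806), Gm52520 (0.780) and Hexim1 (0.777). For Myf6 they were Tor1aip2 (0.893), Cops3 (0.870) and Psmc2 (0.864), and for Pax7 Wdr66 (0.863), Tmbim1 (0.774) and Gm20655 (0.723). For Cdh15 they were Nrap (0.880), Myh10 (0.857) and Rnf10 (0.847), and for Mef2c Sgcd (0.873), Tmem64 (0.862) and Ankrd28 (0.860).

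The genes around the members were described by lists. Of 22 receptors and niche genes of satellite cells, 21 were tested and 0 were called in any contrast by edgeR, while 2 (1 higher, 1 lower), 2 (both higher) and 2 (1 higher, 1 lower) had an unadjusted p-value under 0.05 in T against C, E against C and TE against T, beside 14.2%, 14.2% and 5.88% of all genes. Their median log2 fold change was 0.07 in T against C, 0.09 in E against C and -0.02 in TE against T, beside medians of -0.0012, 0.0033 and 0.0014 over all genes. Heyl and Notch3, both of the Notch pathway that keeps satellite cells quiescent, were 0.54 and 0.34 higher on the log2 scale in E than in C, which was not called (edgeR adjusted p = 0.211 and 0.304). The endothelial and fibro-adipogenic sums given above were also higher in every E mouse than in any C mouse, and their part in these 2 genes was not tested. Calcr, a receptor of quiescent satellite cells, had 11 to 79 counts and log2 differences of -0.000054, 0.17 and 0.27 in the same order. With 1 library left out, these ran from -0.10 to 0.13 (without T1 and T2), from -0.17 to 0.49 (without E3 and E2) and from 0.11 to 0.46 (without TE4 and TE1). Pax3, the relative of Pax7, had 0 to 5 counts and was not tested.

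Of 24 cofactors and inhibitors of the Myod1 family, 23 were tested and 1 was called in the tumor main effect, beside 1.36% of all genes. It was Cdkn1a, which encodes the cell cycle inhibitor p21. It was higher with tumor (log2 1.01 in the tumor main effect, SE 0.223, edgeR adjusted p = 0.0295) and had 364 to 584 counts in C mice, 608 to 876 in E mice, 561 to 2286 in T mice and 813 to 1468 in TE mice. The call held in 14 of 25 alternatives. The relatives of Mef2c, Mef2a and Mef2d, differed by 0.04 and 0.04 in T against C, and the E protein Tcf12, a partner of Myod1, by 0.11. When single libraries were left out these ran from 0.0034 to 0.074 (without C2 and C1), from 0.0097 to 0.086 (without C2 and T4) and from 0.088 to 0.15 (without C4 and T1). Id1 and Id3, inhibitors that bind E proteins, were at -0.43 and -0.37 in TE against T (edgeR adjusted p = 0.860 and 0.847), and without T2 at -0.24 and -0.21.

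Of 16 genes of myoblast adhesion and fusion, 15 were found and 12 tested, and 1 was called in the tumor main effect, beside 1.36% of all genes, the adhesion gene Jam3. It was lower with tumor (log2 -0.34, SE 0.0808, edgeR adjusted p = 0.0436), a call that held in 8 of 25 alternatives. In the same contrast the endothelial marker Kdr and the Schwann cell marker S100b were also called lower (log2 -0.69 and -0.73, edgeR adjusted p = 0.00233 and 0.0436), and the fibro-adipogenic marker Ly6a and the myeloid markers S100a8 and S100a9 higher (0.55, 3.13 and 2.97, adjusted p = 0.0102, 0.00157 and 0.00135). Of each list's markers, 1 of 5 endothelial, 1 of 6 Schwann cell, 1 of 5 fibro-adipogenic and 2 of 6 macrophage and neutrophil genes were thus called, and of 5 tendon markers 1 was called, Tnmd, which was lower (-0.86, adjusted p = 0.0241). The endothelial list summed to 104.9 to 137.0 FPKM in C, 113.3 to 165.3 in T, 140.8 to 154.9 in E and 105.7 to 146.0 in TE mice. The part of these cells in the tumor main effects of Jam3, Cdkn1a and Gadd45a was not tested. Cdon, a coreceptor that promotes differentiation, was at 0.10 in T against C and 0.30 in E against C (edgeR adjusted p = 0.813 and 0.387). Tmem182, a membrane protein of muscle, was at -0.04 and -0.06. With 1 library left out, Cdon in T against C ran from -0.044 (without T3) to 0.21 (without T1) and Tmem182 from -0.10 (without T1) to 0.0075 (without T4), while in E against C Tmem182 was at -0.038 without E2.

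Of 10 genes of embryonic and regenerating fibres, 9 were tested and 0 were called by edgeR, while 4, 0 and 4 had an unadjusted p-value under 0.05 in T against C, E against C and TE against T, beside 14.2%, 14.2% and 5.88% of all genes. In T against C 3 of the 4 (Myh3, Myl4 and H19) were higher and 1 (Dlk1) lower, and in TE against T the same 3 were lower and Dlk1 higher, and both comparisons share the T mice. Their median was 0.29 in T against C and -0.30 in TE against T. Without T4, an alternative chosen after the data were seen, these medians were -0.10 and 0.11, so both signs rest on that mouse. Myh3 itself was at 3.17 in T against C and -3.62 in TE against T (edgeR adjusted p = 0.0776 and 0.590), and Myh8 at 0.27 and -0.30 (adjusted p = 0.616 and 0.919). Without T4 these were 0.87 and -1.31 for Myh3 and -0.10 and 0.083 for Myh8.

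Of 10 genes that rise when a muscle loses its nerve, 9 were tested. All 9 had a positive log2 fold change in T against C. Their median was 0.26, or 0.078 without T4, beside -0.0012 over all genes. By edgeR 0 were called there and 2 had an unadjusted p-value under 0.05, beside 0.678% and 14.2% of all genes. In E against C 5 were higher and 4 lower (median 0.021), and in TE against T 3 were higher and 6 lower (median -0.22). In the tumor main effect 1 was called, beside 1.36% of all genes, Gadd45a, a stress gene. It was higher with tumor (log2 0.39, SE 0.0908, edgeR adjusted p = 0.0402), a call that held in 8 of 25 alternatives. Chrna1, a subunit of the acetylcholine receptor, was at 0.23 and Ncam1 at 0.24 in T against C (edgeR adjusted p = 0.512 and 0.559), or 0.037 and 0.042 without T4. Chrna1 was at 0.35 without T2. Of 6 proliferation genes, 5 were tested and 0 called by edgeR. Mki67, a gene of dividing cells, was 1.07 higher on the log2 scale in the tumor main effect (edgeR adjusted p = 0.345) and had 11 to 184 counts, with the highest value in TE4. Without TE4 the log2 difference in the tumor main effect was 0.56. TE4 was also the library with the highest lymph node and B cell markers (123.5 FPKM against at most 41.05), and their part in the Mki67 counts was not tested.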

How the data were processed

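PolyA RNA of gastrocnemius muscle was sequenced from 16 mice, grouped and numbered as in the labels, which call the 4 mice of a group biological replicates. Per the labels and the submitters' processing notes, the authors trimmed reads with fastp 0.20.1, aligned them to GRCm39 with HISAT2 2.1.0 and counted them with HTSeq 0.11.2. The deposited counts are whole numbers and not normalized. The authors also deposited FPKM values, which equal counts over length and library total (checked for 11907 genes). The annotation release and strand setting are not given in the sources used here. The paper and the labels name different versions of the library kit. The tables held 0 columns of other samples.

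Of 35415 genes, 14749 passed filterByExpr. Counts were tested with edgeR 4.0.16 in R 4.3.3 (TMM, quasi-likelihood, all 16 libraries, 1 coefficient per group, two-sided, Benjamini-Hochberg). CPM use TMM factors. Alternatives were DESeq2 1.42.0, limma 3.58.1, other size factors, no filter, only the groups compared, a replicate block and each library left out. Mymk and Mymx were compared by exact permutation, and correlations with 100000 permutations. The test was checked on simulated counts. Positions are from GENCODE. The members and lists were chosen with earlier results of these data known. Named genes were the members, genes of the lists that were called, a fixed set of list genes, and the 3 most like each member. Replicate numbers stand for different mice and do not pair samples. The p-values measure the spread between these mice.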

Additional observations from a re-analysis of the deposited data

Results flagged for a closer look

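Of 36 groups of 4 mice checked for the 9 genes, 4 held a mouse whose gap to the nearest other mouse took a larger share of the range of the group than Dixon's 95% critical value, where chance gives about 1 in 20. Mymk in T4 had a gap of 1.0 of the range, since the other T mice were at 0 counts, and Mymx in T4 had a gap of 0.871. Myod1 in C1 had a gap of 0.839 (27.5 FPKM against 17.1 to 18.8 in the other C mice), and Myf5 in C1 a gap of 0.83 (1.18 against 0.857 to 0.909 FPKM). C1 thus stood apart for both commitment genes and T4 for both fusion genes. The cause was not tested.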

How the results depend on the processing

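Of 1071 values of a member under an alternative, 94 changed sign, and all 94 had an unadjusted p-value of at least 0.05 in both fits. In E against C, 1 member (Myf6) was called by DESeq2, 1 with only the groups compared and 1 without adjustment, beside 1.85%, 1.29% and 14.2% of all genes, and without adjustment 1 each passed in TE against T, the training main effect and the interaction, beside 5.88%, 10.8% and 9.21%. Of the correlations between members, 1 (Mymk and Mymx) passed on values centred on group means. T4 sets the T group mean of both genes there, so that pass cannot show that they vary together. With a library left out 0 to 1 passed, the 1 being the same pair without T3 (permutation adjusted p = 0.0331). T4 is kept in it, and without T4 the uncentred r of the pair was 0.358. The log2 fold changes that changed sign were as follows. With only the groups compared Myf5 was at -0.00103 in T against C. With the replicate block Myf5 was at -0.019 in T against C and Myog was at -0.016 in the training main effect. With limma-voom Myf5 was at -0.078 and Myod1 at 0.041 in T against C, Cdh15 was at 0.023 in E against C and Myf5 was at -0.0021 and Pax7 at -0.025 in the tumor main effect. With limma on log2(FPKM + 1), with and without a filter, Myf5 was at -0.037 in T against C, Cdh15 was at 0.032 in E against C and Mef2c was at -0.00075, Myf5 at -0.027, Myod1 at -0.010 and Pax7 at -0.014 in the tumor main effect. With limma on log2(FPKM + 0.1) Myf5 was at -0.11 in T against C, Cdh15 was at 0.037 in E against C and Mef2c was at -0.000721, Myf5 at -0.076, Myod1 at -0.011 and Pax7 at -0.041 in the tumor main effect. In T against C, Myf5 ranged from -0.35 to 0.21, Myod1 from -0.15 to 0.17, Myog from -0.59 to 0.0016 and Pax7 from -0.087 to 0.20 when 1 library was left out. In E against C, Cdh15 ranged from -0.027 to 0.039, Mef2c from -0.0090 to 0.12 and Myod1 from -0.013 to 0.29 when 1 library was left out. In TE against T, Mef2c ranged from -0.12 to 0.0047, Myf5 from -0.0046 to 0.57 and Myog from -0.011 to 0.59 when 1 library was left out. In the tumor main effect, Mef2c ranged from -0.00036 to 0.068, Myf5 from -0.16 to 0.13, Myf6 from -0.067 to 0.010, Myod1 from -0.040 to 0.15, Myog from -0.20 to 0.10 and Pax7 from -0.093 to 0.058 when 1 library was left out. In the training main effect, Mef2c ranged from -0.035 to 0.035 and Myog from -0.10 to 0.20 when 1 library was left out. In the interaction, Myf5 ranged from -0.19 to 0.39 and Myod1 from -0.035 to 0.30 when 1 library was left out. The cause was not tested.

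Over all genes, edgeR called 100 in T against C, DESeq2 423, edgeR without the filter 174, edgeR with only these groups 30, and limma on FPKM 12 to 38. In E against C edgeR called 13, DESeq2 252, only these groups 183, limma-voom 141, no filter 45, the replicate block 25 and DESeq2's size factors 21. In the tumor main effect edgeR called 201, DESeq2 479 and unfiltered FPKM 51. In the training main effect edgeR called 1, DESeq2 97, no filter 17 and limma-voom 14. In TE against T edgeR called 0, DESeq2 7 and no filter 3, and in the interaction edgeR called 0 and DESeq2 21. With a library left out, calls ran from 16 (without C4) to 255 (without T2) in T against C and from 0 (without C1, C3 or E4) to 127 (without T3) in E against C, and to 104 (without T3) in the training main effect.

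Of the listed genes called in the tumor main effect, Cdkn1a had edgeR adjusted p-values of 0.00691 (without T2) to 0.0772 (without C4) with 1 library left out, Gadd45a 0.0112 (without TE1) to 0.0885 (without E3) and Jam3 0.0124 (without T4) to 0.101 (without TE3). Over all alternatives the adjusted p ran from 0.00516 to 0.186 for Cdkn1a, from 0.00472 to 0.175 for Gadd45a and from 0.00634 to 0.126 for Jam3. In T against C, Jam3 was also called without T4 (log2 -0.57, adjusted p = 0.0298) and without C1 (-0.54, 0.0470), and Cdkn1a without T2 (1.55, 0.0138). The values of lists without T3, T4 or TE4, those of named listed genes with a library left out and the correlations without T4 alone were chosen after seeing the data. Over 24 pairs of mice of the same number in different groups, the deviations from the group means had a mean correlation of 0.00566 (-0.219 to 0.258), beside -0.00145 for mice of different numbers, so the numbers were not taken as pairs. As a hint from the data and not from the design, 9 of 16 libraries correlated best with a library of their own number. That is more than an even choice among the 4 replicate numbers would give, and it was not tested. With the replicate block 0 members were called in all 6 contrasts. Mymk and Mymx lay at or near the floor of 3 counts in most mice.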
